A study of Mus musculus with 9 samples.

Results

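The transcripts described here come from microRNA loci, read by 302 probe sets of 297 genes on a mouse whole-transcript array. A probe set was a member if the platform annotation named exactly 1 gene for it and the gene symbol began with Mir followed by a digit, or with Mirlet. Of 28853 probe sets, 21789 named 1 gene and 305 of these had such a symbol. The rule leaves out 3 of them, among them the locus of miR-378 itself, and 0 other members of the miR-378 family were found on the array. Of the 302 members, 295 are annotated to a single hairpin gene and 7 to a long host transcript (Mir17hg, Mir100hg, Mir670hg and 4 probe sets of Mir99ahg). A further 61 probe sets carry a Mir symbol beside other genes and were not used here.

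The cells were NIH-3T3, a mouse embryonic fibroblast line, transfected at 25 nM with DharmaFECT 1 and analysed after 48 hours. The mimic group received a miR-378 mimic, a synthetic copy of this microRNA (3 arrays), the inhibitor group a miR-378 inhibitor, which blocks it (3 arrays), and the control group a RISC-free siRNA, which is built not to enter the silencing complex (3 arrays). All 3 groups share the line and the transfection reagent, and the siRNA is the only control, so the arrays hold no untreated cells. Whether the 3 samples of a group were grown separately is not stated in the labels, and the p-values cover the spread among these samples alone, which may be technical. In RNA of a whole culture, fewer cells of a kind and less RNA per cell cannot be told apart.

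A microRNA is cut from a longer primary transcript. Drosha releases a hairpin from it in the nucleus, Dicer cuts the hairpin to a short duplex, and 1 strand of the duplex is loaded into an Argonaute protein, where its seed, the bases 2 to 8 from the 5′ end, pairs with target messages. Many hairpins lie in clusters that are transcribed together, and others sit in introns of protein-coding genes. A whole-transcript array is labelled from long cDNA, so its probe sets at a hairpin locus read the primary or precursor transcript and say little about the mature microRNA.

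Sequences were taken from RefSeq (GRCm38.p6), which holds an entry for 273 of the 302 members and a mature sequence for 272. The hairpins of the 3 members with the smallest adjusted p against the control among those above the level limit defined below are shown first, with the mature arms in capitals. Mir323 lies at chr12:109712508-109712593 on the plus strand, Mir27a at chr8:84208672-84208758 on the plus strand and Mir31 at chr4:88910557-88910662 on the minus strand. The RefSeq gene table lists no gene over the first 2 hairpins and the predicted gene Gm49890 over Mir31.
Mir323: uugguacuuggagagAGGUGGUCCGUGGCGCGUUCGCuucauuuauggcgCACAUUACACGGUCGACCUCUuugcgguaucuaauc
Mir27a: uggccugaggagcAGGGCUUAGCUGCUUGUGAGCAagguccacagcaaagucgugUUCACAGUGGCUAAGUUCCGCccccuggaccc
Mir31: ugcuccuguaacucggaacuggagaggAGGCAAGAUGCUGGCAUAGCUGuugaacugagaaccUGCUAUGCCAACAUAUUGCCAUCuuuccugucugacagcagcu

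The mature sequences of the miR-17-92 cluster on chromosome 14 are shown because 4 of its loci were called in the inhibitor arrays. Capitals mark the seed. The arms miR-17-5p and miR-20a-5p share 1 seed, miR-19a-3p and miR-19b-3p share another, and the seed of miR-18a-5p is not shared with any other member.
miR-17-5p: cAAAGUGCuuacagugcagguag
miR-20a-5p: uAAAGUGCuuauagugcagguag
miR-18a-5p: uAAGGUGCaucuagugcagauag
miR-19a-3p: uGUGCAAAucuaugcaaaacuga
miR-19b-3p: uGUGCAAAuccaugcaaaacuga

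For the loci above the level limit that passed the test in any comparison, a few mature arms show how unlike their seeds are. These 18 members, which do not include the miR-17-92 loci just shown, have 35 mature arms in RefSeq with 35 different seeds. Again the capitals mark the seed. The first 5 arms come from the imprinted cluster on chromosome 12.
miR-323-3p: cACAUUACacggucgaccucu
miR-668-3p: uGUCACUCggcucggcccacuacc
miR-679-5p: gGACUGUGaggugacucuuggu
miR-409-3p: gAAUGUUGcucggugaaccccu
miR-543-3p: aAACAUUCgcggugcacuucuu
miR-27a-3p: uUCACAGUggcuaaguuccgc
miR-31-5p: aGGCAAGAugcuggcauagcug
miR-221-3p: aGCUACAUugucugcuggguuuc

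Most microRNA loci gave low values. Of 302 members, 100 had a mean over the 9 arrays at or above the 40th percentile of all single-gene probe sets, which is 3.86 on the log2 RMA scale. That is 33.1% of the members (exact binomial 95% interval 27.8 to 38.7%), against 60% of all single-gene probe sets, a share set by the percentile. RMA, the robust multi-array average, gives background-corrected and normalized log2 intensities, which depend on the probes as well as on the RNA. The members' median was 3.58 (quartiles 3.32 and 4.06, range 2.91 to 7.34), and the median of the other single-gene probe sets was 4.16. Only 22 members had a mean above 5 and 7 a mean above 6. Just inside the limit lay Mir125b-1 (3.88), Mir298 (3.87) and Mir694 (3.87), and just outside it Mir338, Mir30b and Mir219a-2 (3.86 each). Below, "tested" refers to the 100 members above this limit, and the other 202 were fitted only with the level filter removed.

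**Figure D1:**
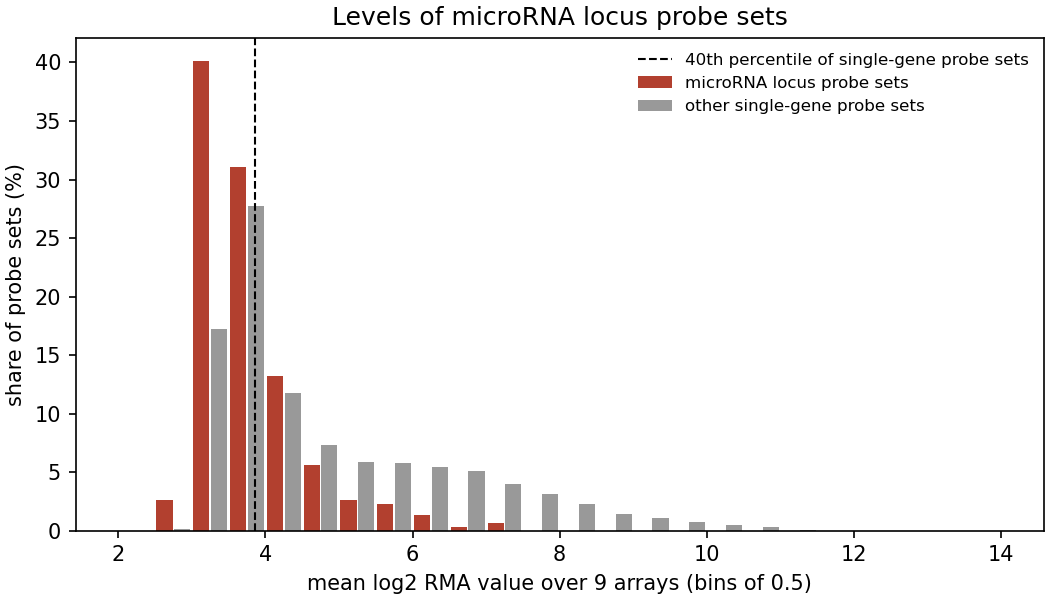
Share of probe sets (%) by mean log2 RMA value over 9 arrays in bins of 0.5, for the 302 microRNA locus probe sets (red) and for the other single-gene probe sets (grey), with the 40th percentile at 3.86 as a dashed line. The red bars pile up below the line, and only 7 members lie above 6.

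The 12 probe sets with the highest means were Mir692-1 (7.34), Mir134 (7.11), Mir341 (6.66), Mir346 (6.44), Mir382 (6.35), Mir679 (6.11), Mir667 (6.09), Mir329 (5.92), Mir323 (5.84), Mir320 (5.81), Mir328 (5.74) and Mir668 (5.72). All but Mir692-1, Mir346, Mir320 and Mir328 belong to the Dlk1-Dio3 region of chromosome 12. These values belong to each probe set and do not rank the loci by RNA amount. The Mir692-1 value is uncertain, since probe sets of other copies of this family carry the ferritin gene Ftl1 in their annotation as well. Of those outside chromosome 12, Mir346 had differences from the control of 0.18 with the mimic and -0.02 with the inhibitor, Mir320 of 0.24 and -0.02, and Mir328 of 0.20 and -0.07. None of these passed the test described below, and the inhibitor differences were 0.12 (Mir346), 0.13 (Mir320) and 0.01 (Mir328) without mimic 3 and inhibitor 1, the 2 arrays that stand apart.

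The lists of microRNAs by tissue and function differed in the share of loci above the 40th percentile, which was 33.1% over all members. Of the Dlk1-Dio3 cluster, 28 of 40 members on the array were above it (70%). The list of fibroblast and matrix microRNAs had 11 of 30 (36.7%), near the share of all members. Its median level of 3.60 equalled that of the neural list (3.60) and was near that of all members (3.58). The leading probe sets of the fibroblast list were Mir27a (5.37), Mir31 (5.18), Mir125a (5.09), Mir23a (4.96) and Mir199a-1 (4.68). The let-7 family, which restrains growth-promoting genes in differentiated cells, had 4 of 10, namely Mirlet7i (4.70), Mirlet7e (4.68), Mirlet7d (4.34) and Mir98 (3.89). The miR-17-92 clusters and paralogs had 2 of 14 (Mir25 at 4.97 and Mir106b at 3.88) and the p53-linked microRNAs 2 of 11 (Mir194-2 at 4.94 and Mir15a at 4.43). The blood cell list had 2 of 7 (Mir150 at 4.21 and Mir181b-1 at 3.999) and the neural list 1 of 12 (Mir219a-1 at 4.36). None of the 7 muscle, 9 epithelial and 5 pluripotent cell members reached the limit, and the highest of them stood at 3.67 among muscle members, 3.65 among epithelial members and 3.18 among pluripotent cell members. As a check of the labelled cell type, 12 of 12 fibroblast marker genes were above the limit (6.94 to 11.24), against 2 of 5 leukocyte markers (highest 4.62), 2 of 5 epithelial markers (4.18), 1 of 4 endothelial markers (3.98) and 3 of 5 muscle markers (Acta1 at 4.89, Ckm at 4.84 and Myod1 at 4.32).

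The GC content of the hairpin moved with these levels. Over the 260 members with a RefSeq hairpin, Spearman's rho between GC content and mean level was 0.64, a description across loci that share the same 9 arrays. Of the 87 hairpins with the lowest GC content, 12.6% lay above the limit, against 18.6% of the middle 86 and 60.9% of the 87 with the highest. The Dlk1-Dio3 list had a median GC content of 45.1%, against 47.4% over all members. The part of base composition in the levels was not tested.

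**Figure D2:**
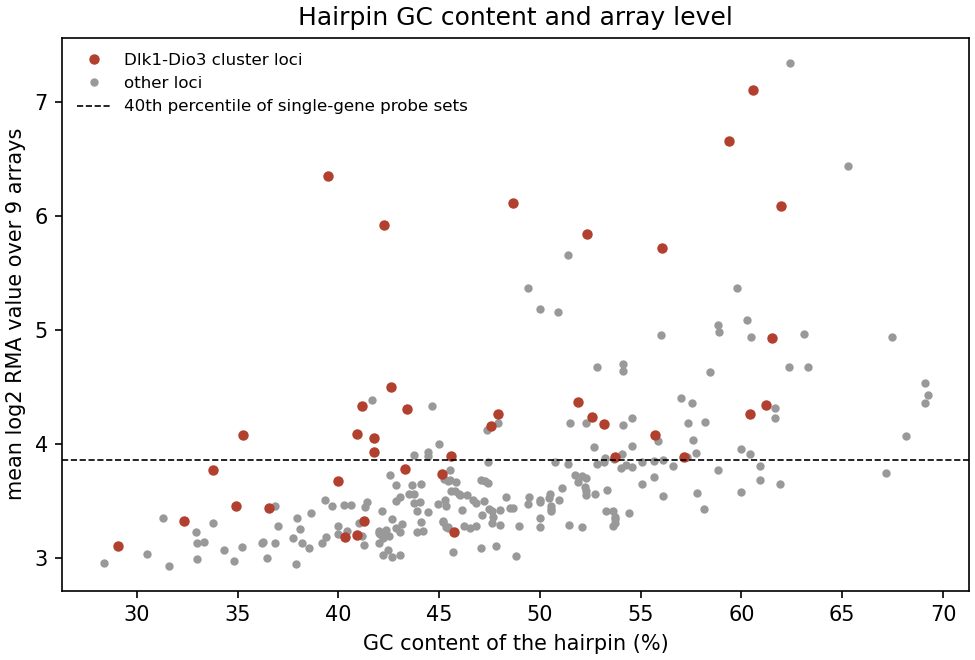
Mean log2 RMA value over 9 arrays against the GC content (%) of the RefSeq hairpin for 260 members, with loci of the Dlk1-Dio3 cluster in red, other loci in grey and the 40th percentile as a dashed line. Values rise with GC content, and Mir382, Mir329 and Mir679 of the Dlk1-Dio3 cluster lie well above other loci of like GC content.

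Mimic 3 and inhibitor 1 stood apart from the other arrays. On the first principal component of the tested probe sets, which held 60.1% of the variance, they lay at the ends with scores of -21.6 and 21.9. Mimic 1 and 2 had -9.29 and -3.95, inhibitor 2 and 3 had 10.1 and 13.9, and the 3 controls lay between -4.67 and -2.86. This component thus also separated the inhibitor arrays from all others, and the 2 end arrays are the most extreme along it. Array medians ran from 3.94 to 4.03, and any 2 arrays had at most 3.58% of values in common. In the tested members the difference of inhibitor 1 from the other inhibitor arrays fell with hairpin GC content (Spearman's rho -0.69 over 80 hairpins), and that of mimic 3 from the other mimic arrays rose with it (0.50). Results are therefore also given without these 2 arrays, a choice made after the data were seen.

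With the mimic, 1 of the 100 tested members changed, Mir323, which rose. The share of all tested probe sets called in this comparison was 3.14% (0.979% higher and 2.16% lower), so 1 rise in 100 members is near the background share of rises. At an unadjusted p under 0.05, 15 members passed. No share of all tested probe sets is given at this unadjusted limit, here or for the later counts. The members' median difference was 0.06 log2 units, against -0.01 over all tested probe sets, and 79 of the 100 were above 0. Differences of all tested members lay between -0.14 and 0.37, and over the 260 members with a hairpin sequence they rose with GC content (Spearman's rho 0.34). With the level filter removed 2 of 302 members were called, against 1.57% of all single-gene probe sets.

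Mir323, a brain-enriched microRNA gene of the imprinted Dlk1-Dio3 region, stood at 6.03, 6.22 and 6.21 in the mimic arrays, at 5.57, 5.61 and 5.53 in the inhibitor arrays and at 5.85, 5.84 and 5.73 in the controls. The 3 groups did not overlap, with the mimic arrays highest and the inhibitor arrays lowest. Against the control the difference was 0.35 ± 0.06 (SE, adjusted p = 0.0180) with the mimic and -0.23 ± 0.06 (adjusted p = 0.0344) with the inhibitor, and both comparisons use the same control arrays. Without mimic 3 and inhibitor 1 the values were 0.32 (adjusted p = 0.0207) and -0.23 (adjusted p = 0.0347). Centring each array on its median gave adjusted p = 0.0347 and 0.0677, so the inhibitor call was lost there. Both calls depended on single arrays, since they held in 6 and 5 of 9 fits that left out 1 array, with adjusted p up to 0.0889 and 0.122. The mimic call was lost in each fit that left out a control array, where 0 members were called.

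The other members with large differences in the mimic arrays did not pass the test. Mir679, of the same region as Mir323, averaged 6.39 ± 0.25 in the mimic arrays and 6.02 ± 0.07 in the controls (SD, n = 3 each), a difference of 0.37 (adjusted p = 0.0868). Mir27a had a difference of 0.30 (adjusted p = 0.110), Mir300 of 0.27 (adjusted p = 0.140) and Mir409 of 0.27 (adjusted p = 0.0638). The lowest differences were those of Mir7-1 (-0.14), Mir221 (-0.14), Mir31 (-0.13), Mir181b-1 (-0.11) and Mir125b-1 (-0.11), none of which passed. Across the 9 arrays the tested members most like Mir679 were Mir543 (Pearson's r 0.93), Mir487b (0.93) and Mir323 (0.90), all from the Dlk1-Dio3 region. There were 6 calls without mimic 3 and inhibitor 1, with Mir409, Mir300, Mir543 and Mir674 also higher and Mir7-1 lower. Of these, Mir300 reached the level limit only through its mimic arrays. For fits that leave out or centre arrays, shares over all tested probe sets are not given, here or below. Such counts therefore have no background share beside them.

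With the inhibitor, 4 of the 100 tested members changed. Mir27a and Mir31 rose, and Mir323 and Mir668 fell. The share of all tested probe sets called was 14.5% (10.6% higher and 3.92% lower). Centring each array on its median left 2 of these calls, both rises, and no falls. The 4 calls held without mimic 3 and inhibitor 1, where 4 more members were called. The members' median difference was -0.04, against 0.01 over all tested probe sets, and 26 of 100 were above 0. Inhibitor 1 decided this median, which was -0.00289 without it. At an unadjusted p under 0.05, 15 members passed.

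Mir27a encodes a microRNA known to hold back adipocyte differentiation. Its values were 5.31, 5.43 and 5.46 in the mimic arrays and 5.70, 5.75 and 5.40 in the inhibitor arrays, against 5.06, 5.16 and 5.08 in the controls. Every inhibitor array and every mimic array lay above every control. The inhibitor difference was 0.52 ± 0.09 (SE, adjusted p = 0.00406) and it passed in all 9 fits that left out 1 array. Without mimic 3 and inhibitor 1 it was 0.47 (adjusted p = 0.00633). The direct difference of mimic and inhibitor, -0.22, did not pass (adjusted p = 0.0921).

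Mir27a is transcribed with Mir23a and Mir24-2, its nearest neighbours on chromosome 8. Mir23a stood at 5.09, 5.09 and 5.24 in the inhibitor arrays and at 5.01, 4.87 and 4.59 in the controls, a difference of 0.32 ± 0.11 (adjusted p = 0.0831). Every inhibitor array was above every control, although the control arrays spread widely, and Mir23a was called without mimic 3 and inhibitor 1. Mir24-2 had a difference of 0.14 ± 0.07 (adjusted p = 0.212), and its hairpin overlaps that of Mir3074-2, so its value may hold signal of both. Over the 9 arrays the tested members most like Mir27a were Mir24-2 (Pearson's r 0.63), Mir6516 (0.61) and Mir31 (0.55). With all arrays, 1 of the 3 hairpins of this cluster thus passed the test.

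Mir31, a single-hairpin locus on chromosome 4 whose microRNA is known for restraining metastasis in human breast cancer cells, stood at 4.92, 5.10 and 4.78 in the mimic arrays, at 5.61, 5.46 and 5.56 in the inhibitor arrays and at 4.98, 5.01 and 5.21 in the controls. The inhibitor arrays were above all 6 others, and the mimic arrays overlapped the controls. The inhibitor difference was 0.47 ± 0.09 (SE, adjusted p = 0.00622), passed in all 9 fits that left out 1 array, and was 0.44 (adjusted p = 0.00455) without mimic 3 and inhibitor 1. The mimic difference, -0.13, did not pass (adjusted p = 0.533).

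Mir668, in the Dlk1-Dio3 region beside Mir134 and Mir485, stood at 5.59, 5.59 and 5.52 in the inhibitor arrays and at 5.64, 5.85 and 5.88 in the controls. The groups did not overlap, but control 1 lay close above the highest inhibitor array. The difference was -0.22 ± 0.07 (adjusted p = 0.0477), and it passed in only 2 of 9 fits that left out 1 array, with adjusted p up to 0.173. The call was lost after median centring (-0.20, adjusted p = 0.0850). It was -0.23 (adjusted p = 0.0408) without mimic 3 and inhibitor 1. The uncalled tested members with the lowest inhibitor differences were Mir692-1 (-0.43, adjusted p = 0.0897), Mir329 (-0.26, adjusted p = 0.138) and Mir341 (-0.22, adjusted p = 0.254).

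**Figure D3:**
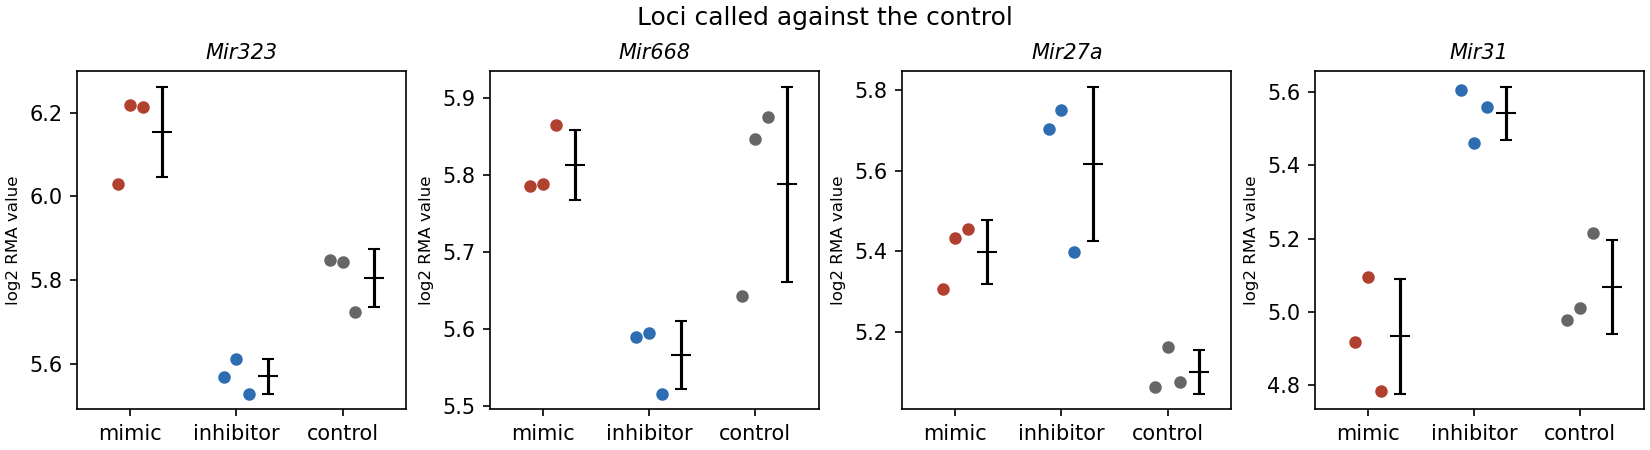
Log2 RMA values of Mir323, Mir668, Mir27a and Mir31 in the mimic (red), inhibitor (blue) and control (grey) arrays, with the group mean and SD in black (n = 3 arrays per group). Inhibitor arrays are lowest for Mir323 and Mir668 and highest for Mir31, and for Mir27a both the mimic and the inhibitor arrays lie above the controls, which range from 5.06 to 5.16.

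The direct comparison of mimic and inhibitor, whose difference leaves out the shared controls, called more members. The control arrays still entered its estimate of the spread, and a fit of only the 6 arrays compared called 10. Of 100 tested members 17 passed, 15 higher and 2 lower with the mimic. Over all tested probe sets 26.3% were called, 6.95% higher and 19.4% lower, against 15% and 2% of the members. At an unadjusted p under 0.05, 29 members passed. The members' median difference was 0.09, against -0.02 over all tested probe sets, and 82 of 100 were above 0. It was 0.03 without mimic 3 and inhibitor 1, where 17 members were again called, but only 12 of them the same. The 5 that lost the call were Mir341, Mir134, Mir668, Mir692-1 and Mir221. Median centring left 10 of the 17 calls.

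Of the 15 members higher with the mimic, 14 belong to the Dlk1-Dio3 cluster and the other is Mir692-1. This cluster is an imprinted region in which a long run of microRNAs, small nucleolar RNAs and the long RNAs Meg3, Rian and Mirg is expressed from the maternal chromosome. The 28 tested loci of the cluster had a median difference of 0.22 between mimic and inhibitor, and all 28 were above 0. The 72 other tested members had a median of 0.06, with 54 above 0 and 3 called. Without mimic 3 and inhibitor 1 the cluster's median was 0.23, with 26 of 28 above 0 and 14 called, not all the same loci. Median centring left 8 of the cluster's calls. Over the 80 tested members with a hairpin sequence, Spearman's rho between GC content and this difference was -0.01 with all arrays and -0.38 without the 2 arrays.

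Against the control, the cluster's 28 tested loci had a median of 0.11 with the mimic and of -0.11 with the inhibitor. With the mimic 27 of 28 were above 0, and with the inhibitor 0 of 28. The called counts were 1 higher with the mimic and 2 lower with the inhibitor. Over all tested probe sets 0.979% were called higher with the mimic and 3.92% lower with the inhibitor. Both comparisons use the same control arrays. Array by array, the median of the cluster relative to the control mean was 0.12, 0.15 and 0.07 in the mimic arrays, -0.11 in each inhibitor array, and 0.01, 0.01 and -0.03 in the controls. The 3 groups of arrays did not overlap in this median. Without mimic 3 and inhibitor 1 there were 4 calls with the mimic and 4 with the inhibitor, and 25 and 5 of 28 were above 0. After median centring there was 1 call with the mimic and 0 with the inhibitor. Shares over all tested probe sets are not given for these alternatives. The loci share their primary transcripts, so they are not separate measurements.

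Within the cluster the largest direct differences were those of Mir323 (0.58 ± 0.06, adjusted p = 0.000212), Mir679 (0.48 ± 0.10, adjusted p = 0.00662) and Mir341 (0.46 ± 0.12, adjusted p = 0.0178). Mir679 stood at 6.19, 6.67 and 6.33 in the mimic arrays and at 5.94, 5.93 and 5.88 in the inhibitor arrays. All 3 mimic arrays were higher, and they spread far more than the inhibitor arrays. Mir341, which lies within Rian, stood at 6.89, 6.68 and 7.09 in the mimic arrays and at 6.24, 6.48 and 6.57 in the inhibitor arrays, again without overlap. Without mimic 3 and inhibitor 1 the Mir341 difference was 0.26 and no longer passed (adjusted p = 0.0938), while Mir323 (0.55) and Mir679 (0.52) did. The other cluster calls were Mir329 (0.37), Mir409 (0.32), Mir300 (0.30), Mir377 (0.29), Mir543 (0.26), Mir496a (0.26), Mir668 (0.25), Mir412 (0.23), Mir369 (0.19), Mir494 (0.18) and Mir134 (0.17), with adjusted p between 0.00397 for Mir412 and 0.0489 for Mir377. In the groups of Mir329 and Mir377 the mimic and inhibitor arrays overlapped in spite of the call.

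In the order of the loci along the chromosome, the first call was Mir341, the ninth of 40, and the last was Mir369, the last locus. The calls between them were not continuous. The tested loci Mir370, Mir380, Mir666, Mir667, Mir487b, Mir382, Mir485 and Mir154 lay in this stretch and were not called. The first 6 loci, Mir673, Mir337, Mir540, Mir665, Mir431 and Mir127, were tested and none was called, with direct differences from 0.05 for Mir337 to 0.33 for Mir673. The loci below the limit in this region had direct differences from 0.00 (Mir136) to 0.23 (Mir541). Mir541, at 3.82, 3.89 and 3.92 in the mimic arrays and 3.73, 3.64 and 3.58 in the inhibitor arrays, was called only with the level filter removed (adjusted p = 0.0209). The long RNAs of the region, named after their values were seen, had direct differences of 0.53 (Meg3, adjusted p = 0.00322) and 0.26 (Rian, adjusted p = 0.0249). Against the control, Meg3 differed by 0.31 with the mimic (adjusted p = 0.143) and by -0.23 with the inhibitor (adjusted p = 0.157). Rian differed by -0.00278 with the mimic (adjusted p = 0.991) and by -0.26 with the inhibitor (adjusted p = 0.0381), so it was lower with the inhibitor only.

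**Figure D4:**
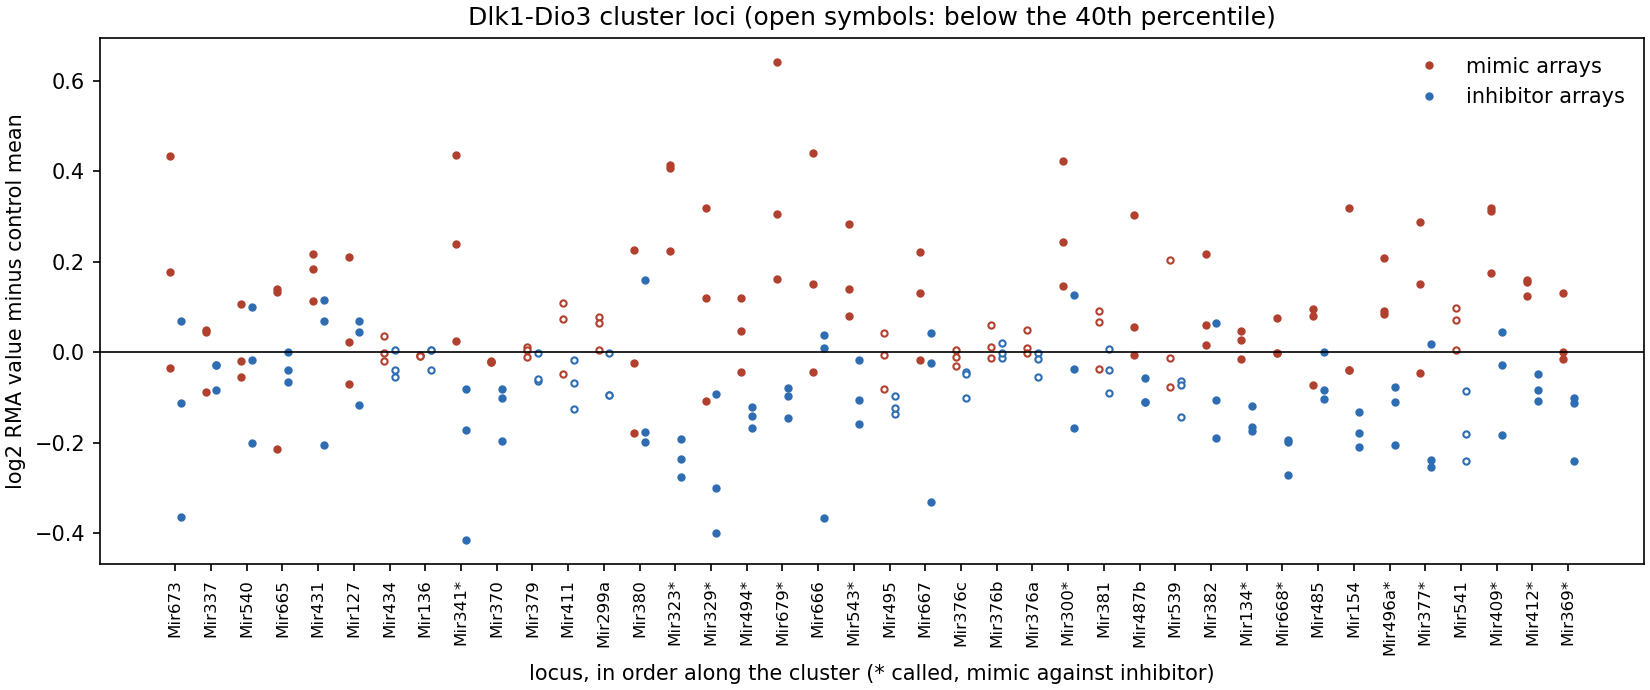
Log2 RMA value minus the control mean for each mimic array (red) and inhibitor array (blue) at 40 loci of the Dlk1-Dio3 cluster, in their order along the chromosome, with open symbols for loci below the 40th percentile and an asterisk for loci called in the direct comparison. Red points lie mostly above 0 and blue points mostly below it, and the open symbols lie closer to 0.

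The other members called in the direct comparison were Mir692-1, Mir31 and Mir221. Mir31 was lower with the mimic by -0.61 ± 0.09 (adjusted p = 0.000905), the largest difference of any member in this comparison. Mir221, an X-linked microRNA gene known for targeting the cell cycle inhibitor p27, stood at 4.07, 3.99 and 3.996 in the mimic arrays and at 4.24, 4.17 and 4.20 in the inhibitor arrays. The groups did not overlap, and the difference was -0.18 ± 0.05 (adjusted p = 0.0162). Its neighbour Mir222, at a mean of 3.40, lay below the limit. Mir692-1 had 7.66, 7.50 and 7.47 in the mimic arrays against 7.07, 7.38 and 6.64 in the inhibitor arrays, a difference of 0.51 ± 0.15 (adjusted p = 0.0322), with 1 inhibitor array far below the other two. Without mimic 3 and inhibitor 1, Mir221 (-0.16, adjusted p = 0.0552) and Mir692-1 (0.57, adjusted p = 0.0549) no longer passed, and Mir31 (-0.50, adjusted p = 0.00302) did.

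Below the limit, the miR-17-92 cluster stood out in the inhibitor arrays. This cluster, a target of Myc and E2F factors, encodes microRNAs that promote proliferation, and its host transcript is Mir17hg. In the fit without the level filter 7 of 302 members were called with the inhibitor, 6 of them higher, against 7.28% of all single-gene probe sets (5.09% higher). The members below the limit among these 7 were Mir18, Mir19a, Mir20a and Mir19b-1, all higher. Most other members below the limit stayed near 0. With the mimic 201 of 202 differed from the control by less than 0.1, and Mir451a, an erythroid microRNA gene, was lowest at -0.12. With the inhibitor 189 of 202 differed by less than 0.1, and Mir541 (-0.17), Mir30c-2 (-0.14) and 1 probe set of Mir99ahg (-0.14) were lowest, with none called.

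Mir18 stood at 3.46, 3.46 and 3.38 in the mimic arrays, at 3.95, 3.75 and 3.79 in the inhibitor arrays and at 3.48, 3.39 and 3.43 in the controls. The inhibitor arrays were above all 6 others. The difference was 0.40 ± 0.05 (SE, adjusted p = 0.00406). Mir19b-1 stood at 3.90, 3.82 and 3.91 in the inhibitor arrays and at 3.51, 3.51 and 3.50 in the controls, a difference of 0.37 ± 0.04 (adjusted p = 0.00142). Both calls held in all 9 fits that left out 1 array and in the fit without mimic 3 and inhibitor 1, where the differences were 0.34 and 0.36.

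Mir20a had 3.91, 3.69 and 3.73 in the inhibitor arrays and 3.45, 3.48 and 3.54 in the controls, and Mir19a had 3.60, 3.50 and 3.47 against 3.31, 3.36 and 3.38. Neither pair of groups overlapped. The differences were 0.29 (adjusted p = 0.0477) for Mir20a and 0.17 (adjusted p = 0.0354) for Mir19a, and these calls held in 3 and 2 of 9 fits that left out 1 array. Both were lost after median centring (adjusted p = 0.0818 and 0.0698) and with the replicate number as a block (adjusted p = 0.0947 and 0.0788). Hairpins of this cluster share a primary transcript, so they are not separate measurements. Mir17, the first hairpin of the cluster, had a difference of 0.12, and the probe set of Mir17hg stood at 3.49 ± 0.03 in the inhibitor arrays and at 3.40 ± 0.04 in the controls (SD, n = 3 each). Neither was called. All values of the cluster are near the bottom of the array's range, where arrays are known to understate differences.

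In the direct comparison without the level filter, 20 of 302 members were called, against 14.2% of all single-gene probe sets. The 6 lower calls, against 10.2% lower over all, included the same 4 loci of the cluster, with differences from -0.40 for Mir18 to -0.16 for Mir19a. In the fit without mimic 3 and inhibitor 1, Mir18 and Mir19b-1 passed, and Mir19a (adjusted p = 0.0968) and Mir20a (adjusted p = 0.140) did not. With the mimic these 4 loci differed from the control by -0.00 (Mir18), 0.01 (Mir19a), 0.02 (Mir20a) and 0.05 (Mir19b-1). The paralogous cluster Mir106b, Mir93 and Mir25, whose microRNAs share seeds with it, had inhibitor differences of -0.03, -0.04 and 0.07, and none was called.

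**Figure D5:**
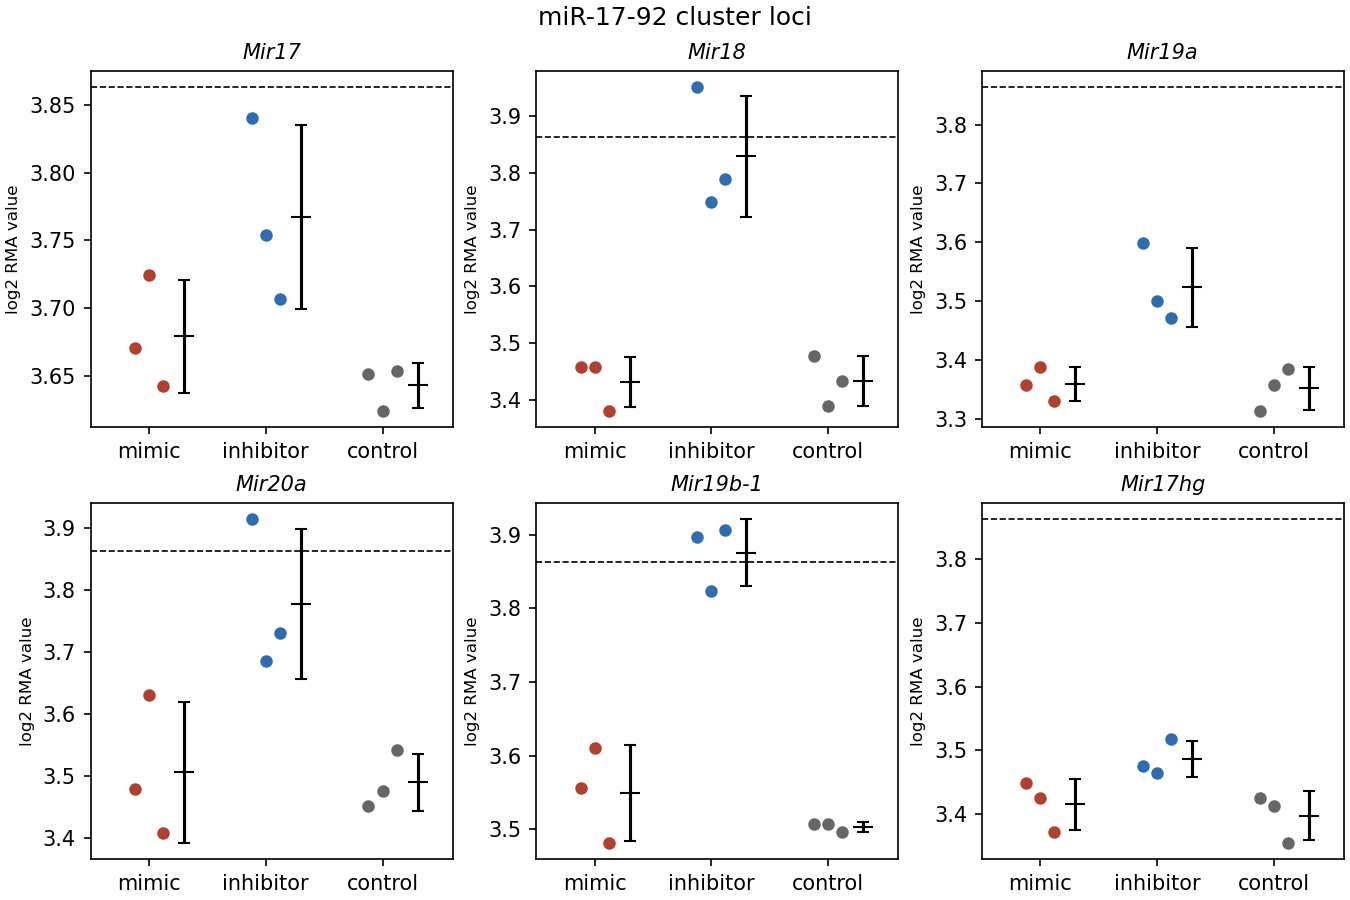
Log2 RMA values of 5 hairpin loci of the miR-17-92 cluster and of its host transcript Mir17hg in the mimic (red), inhibitor (blue) and control (grey) arrays, with group means and SD in black (n = 3 arrays per group) and the 40th percentile of single-gene probe sets, 3.86, as a dashed line. The inhibitor mean is highest in each panel, and the arrays above the line are inhibitor 1 for Mir18 and Mir20a, and inhibitor 1 and 3 for Mir19b-1.

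Some hairpins lie in or near genes that have probe sets of their own, most of them protein-coding. The pairs came from general knowledge of mouse loci, and some listed hosts, such as Mir17hg, are not protein-coding. The list of hosts gave 65 pairs of a member and a host probe set, where a host can have several probe sets. They held 46 host genes, of which 40 were above the limit. In these 40, the inhibitor called 6 higher and 2 lower, the mimic 1 higher and 0 lower, and the direct comparison 3 higher and 11 lower, beside shares of 14.5%, 3.14% and 26.3% over all tested probe sets. Their hairpins counted 50, of which 14 could be tested and 0 were called in any of the 3 comparisons. At an unadjusted p under 0.05 the limma test gave 1 of these 14 with the mimic, 1 with the inhibitor and 2 in the direct comparison.

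Mcm7, a subunit of the replicative helicase whose intron holds Mir106b, Mir93 and Mir25, stood at 8.39, 8.24 and 8.34 in the inhibitor arrays and at 7.95, 7.88 and 7.95 in the controls. It rose by 0.39 ± 0.09 (adjusted p = 0.0147), while Mir25 differed by 0.07 (adjusted p = 0.683) and Mir106b by -0.03 (adjusted p = 0.722). Copz2, which encodes a coat protein of vesicles and holds Mir152, rose by 0.46 with the mimic (adjusted p = 0.00340), and Mir152 differed by 0.08. With the inhibitor Copz2 differed by -0.20 (adjusted p = 0.0477) and Mir152 by 0.06 (adjusted p = 0.461). Mest, an imprinted gene that holds Mir335, fell with the inhibitor by 0.49 (adjusted p = 0.00187), and Mir335 differed by -0.05 in the fit without the level filter. Slit2, a guidance ligand that holds Mir218-1, rose with the inhibitor by 0.62 (adjusted p = 0.0140), and Mir218-1 differed by -0.02 in that fit. Mir335 (mean 3.65) and Mir218-1 (mean 3.27) lay below the limit and were not tested with the filter. Copz2, Mest and Slit2 were chosen after their values were seen, and the difference between host and hairpin was not tested.

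The tested members of the let-7, miR-17-92, p53-linked, blood cell and neural lists were 11 in all, and limma called 0 of them in the 3 comparisons, beside 3.14% (mimic), 14.5% (inhibitor) and 26.3% (direct) of all tested probe sets. At an unadjusted p under 0.05, 0 passed with the mimic, 1 with the inhibitor and 0 in the direct comparison. The 4 tested let-7 loci had medians of 0.04 with the mimic and of -0.06 with the inhibitor. In the fibroblast and matrix list, 2 of 11 tested members rose with the inhibitor, Mir27a and Mir31, beside 10.6% of all tested probe sets, and the median of the 11 was 0.04. Among its other members Mir199a-1, whose microRNA is typical of mesenchymal cells, had an inhibitor difference of -0.15 (adjusted p = 0.166) and Mir125a one of -0.14 (adjusted p = 0.315). The p53-linked loci Mir194-2 and Mir15a had inhibitor differences of 0.06 and -0.10. The blood cell loci Mir150 and Mir181b-1 had 0.06 and -0.12, and the neural locus Mir219a-1 had -0.06, which was 0.01 without mimic 3 and inhibitor 1.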

How the data were processed

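RNA of 9 NIH-3T3 samples was measured on whole-transcript arrays. The values deposited by the authors are log2 intensities, 1 for each probe set on each array. The submitters' processing notes name Partek 6.5 and RMA. For the probe sets' genome build, the sources used here give none. The table had 0 missing values, and 0 sample columns were left unused.

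The 9 arrays entered 1 linear model with 3 group coefficients (limma 3.58.1, R 4.3.3; 6 residual and 4.26 prior degrees of freedom, median moderated SD 0.08). The 13073 single-gene probe sets at or above the 40th percentile of the mean were tested, with Benjamini-Hochberg adjustment over all of them and a threshold of 0.05. Every adjusted p comes from this test, or, for members below the limit, from the same fit to all 21789 single-gene probe sets. The number of arrays limits the precision. The fit was tested on simulated data.

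Members are named by a rule: the highest means, called members, the most extreme differences, list members above the limit, those nearest it, and hosts. The members and lists were chosen with earlier results of these data known. Gene IDs of all 302 members matched the RefSeq table. Alternatives were the filter, quantile normalization, median centring, 1 probe set per gene, fits of 6 arrays, a replicate block, moderation with trend and leaving out arrays. Figures were drawn with matplotlib.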

Additional observations from a re-analysis of the deposited data

How the results depend on the processing

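For members at an unadjusted p under 0.05, and for those below the limit that were called, 1202 values were computed under alternatives. Of these, 1018 kept direction and side of the threshold, including uncalled values that stayed uncalled. A further 145 lost the call, 39 gained one and 0 changed direction. The values were chosen by p in the same arrays, so a change of direction was unlikely from the start. Of 96 other values of named members above the limit, none of them called, 40 changed sign under at least 1 alternative, the largest being Mir320 in the direct comparison (0.26, and -0.05 without mimic 3 and inhibitor 1). The mimic count of 1 became 2 with no level filter, 3 after quantile normalization, 0 in a fit of the 6 arrays compared, 3 with moderation by trend, 6 without mimic 3 and inhibitor 1, and 0 to 2 when 1 array was left out. The inhibitor count of 4 became 7 with no level filter and after quantile normalization, 2 after median centring and with trend, 8 without both arrays, and 2 to 6 when 1 array was left out. The direct count of 17 became 11 with a filter at the median, 10 after median centring and in a fit of 6 arrays, and 9 to 20 when 1 array was left out. Median differences became 0.00711 (mimic) and 0.0337 (direct) with no level filter, 0.0573 (direct) after median centring, and -0.00289 (inhibitor) and 0.0299 (direct) without both arrays. With 1 array left out they ran from 0.0369 to 0.0674 (mimic), from -0.0666 to -0.00289 (inhibitor) and from 0.0596 to 0.109 (direct). The share of members above the limit was 22.5% at the median of single-gene probe sets and 32.8 to 33.4% when 1 array was left out. The causes were not tested. The samples share only a replicate number: 5 of 9 same-numbered pairs correlated above 0.1 (r from -0.58 to 0.22). With the replicate number as a block 2, 2 and 14 members were called in the mimic, inhibitor and direct comparisons. The inhibitor falls of Mir323 (adjusted p = 0.0517) and Mir668 (adjusted p = 0.0679) were not called with it, and 11 direct calls of the Dlk1-Dio3 cluster were. Values near the bottom of the range limit what the 202 members below the limit can show.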
